A study of Mus musculus with 18 samples.

Results

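The genes described here are 34 genes that mark the resident macrophages of the mouse brain, taken as listed symbols and matched by GENCODE M21 to 34 of the 53468 genes in the count table. They fall into 27 genes of parenchymal microglia and 7 genes of border macrophages or of MHC class II. Poly(A) RNA was sequenced from forebrain, midbrain and hindbrain of 6 mice of 1 litter on day 25 after birth (P25), which gave 18 libraries. The 3 Fmr1CRE mice carried a single-nucleotide change in a cis-regulatory element of Fmr1, placed in their genome by CRISPR/Cas9 on a C57BL/6 background, and the other 3 were wild type. No group was treated. The study established several lines with the change, and the line of these mice is not given in the sources used here. Each region was dissected whole, so every library mixed all cell types of its region.

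Microglia are the macrophages inside the brain tissue. They arise from the embryonic yolk sac, depend on signals through the receptor Csf1r, and survey the tissue with fine processes. Border macrophages lie in the meninges, along vessels and in the choroid plexus, and a part of them carries MHC class II proteins, which present peptides to T cells. At this age the brain is still being wired, and microglia are known to remove synapses tagged with complement and to clear dying cells.

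The libraries held between 22455512 and 28061185 counts. The Hox and cerebellar markers of hindbrain summed to between 148 and 314 RPKM in hindbrain and to at most 4.45 in forebrain. In the midbrain libraries these markers lay between 31.3 and 87.7 RPKM. Fmr1 itself lay between 49.8 and 82.7 CPM, counts scaled to the normalised library total, in all 18 libraries. In hindbrain its log2 difference between Fmr1CRE and wild type was 0.15 ± 0.13 (SE, n = 3 per group), with an adjusted p of 0.911 in edgeR. For replicate 3, genes present in 1 of the 2 mice of that number and absent from the other, in midbrain and hindbrain alike, numbered 14. In forebrain 7 of these 14 were in the other mouse and 1 in the same mouse, against 1 and 6 of 8 such genes for replicate 1 and 4 and 4 of 12 for replicate 2. The forebrain libraries labelled replicate 3 thus stand apart from the other regions of that number. An exchange of both the midbrain and the hindbrain libraries of replicate 3 would read the same in this check. The counts of forebrain calls are given with and without the forebrain libraries of replicate 3. For single genes the value without them is given where a call was lost or the log2 difference moved by more than 0.2. A change of place between the forebrain libraries of replicate 3 would not alter which libraries are forebrain.

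The letters before a few of these genes are shown first. PU.1, the product of the member Spi1, is a factor that macrophages need, and GAGGAA is the core of the letters it binds. CTGATTGG is the Y box of the promoters of MHC class II genes. Of the 34 members, 25 had a promoter window in the RefSeq table for GRCm38.p6, 20 parenchymal and 5 border genes, and the 250 bases before the start of transcription were searched on both strands. GAGGAA lay in 12 of 20 parenchymal promoters (60%) and 2 of 5 border promoters (40%), and in 25.9% of the 27025 genes with a window. The Y box lay in 1 of 20 and 1 of 5, the promoters of Irf8 and H2-Aa, and in 4.43% of all genes. These matches describe the letters only, and the binding of a factor was not measured. The windows below are of a pair of neighbouring complement genes that moved together, of Itgam, of Lyz2 and of H2-Aa. Lyz2 was highest in hindbrain. GAGGAA or its reverse complement is in capitals, and in H2-Aa the Y box.
C1qb, chr4:136886201-136886450, minus strand: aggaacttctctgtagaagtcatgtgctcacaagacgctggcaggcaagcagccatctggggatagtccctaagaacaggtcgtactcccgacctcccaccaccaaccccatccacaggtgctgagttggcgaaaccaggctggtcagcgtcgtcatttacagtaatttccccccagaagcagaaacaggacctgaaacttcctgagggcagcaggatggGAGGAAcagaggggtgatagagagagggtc
C1qc, chr4:136892915-136893164, minus strand: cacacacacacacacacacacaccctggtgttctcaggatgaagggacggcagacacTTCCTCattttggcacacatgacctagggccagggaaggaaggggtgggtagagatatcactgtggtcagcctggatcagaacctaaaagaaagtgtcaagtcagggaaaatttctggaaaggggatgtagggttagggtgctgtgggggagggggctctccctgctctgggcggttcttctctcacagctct
Itgam, chr7:128062390-128062639, plus strand: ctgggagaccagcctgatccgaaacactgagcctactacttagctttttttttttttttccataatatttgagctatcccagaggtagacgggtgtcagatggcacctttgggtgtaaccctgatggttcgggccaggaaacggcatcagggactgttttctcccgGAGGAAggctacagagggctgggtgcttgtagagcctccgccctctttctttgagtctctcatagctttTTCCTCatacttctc
Lyz2, chr10:117282273-117282522, minus strand: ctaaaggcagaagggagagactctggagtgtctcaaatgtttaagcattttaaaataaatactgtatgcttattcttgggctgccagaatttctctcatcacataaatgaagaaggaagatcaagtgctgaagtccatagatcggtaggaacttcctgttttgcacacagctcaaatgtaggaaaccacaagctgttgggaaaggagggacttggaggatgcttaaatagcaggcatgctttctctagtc
H2-Aa, chr17:34287824-34288073, minus strand: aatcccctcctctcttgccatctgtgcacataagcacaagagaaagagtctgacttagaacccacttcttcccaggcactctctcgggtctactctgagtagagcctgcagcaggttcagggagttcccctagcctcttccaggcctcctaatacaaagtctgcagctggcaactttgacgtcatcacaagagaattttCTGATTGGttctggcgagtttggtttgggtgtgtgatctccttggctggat
The C1qb window held GAGGAA 30 bases before the start. The C1qc window held its reverse complement, with its first base 193 bases before the start. The Itgam window held both, the letters at 84 and their reverse complement at 15 bases before the start, and the Lyz2 window held neither. The Y box of H2-Aa began 51 bases before its start.

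The parenchymal genes ran from forebrain down to hindbrain. Levels are given as RPKM, counts per kilobase of effective transcript length scaled to the normalised library total. Summed over the 27 genes, the level was between 429.5 and 549 RPKM in the 6 forebrain libraries, between 305 and 386 in midbrain and between 244 and 304 in hindbrain. No forebrain library overlapped the other regions, and no midbrain library fell below the highest hindbrain library. The mean in forebrain was 1.78 times that in hindbrain and 1.42 times that in midbrain, and midbrain was 1.25 times hindbrain. These levels are relative to the library total. In bulk tissue, fewer microglia, less RNA per microglial cell and more RNA from other cells cannot be told apart.

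**Figure D1:**
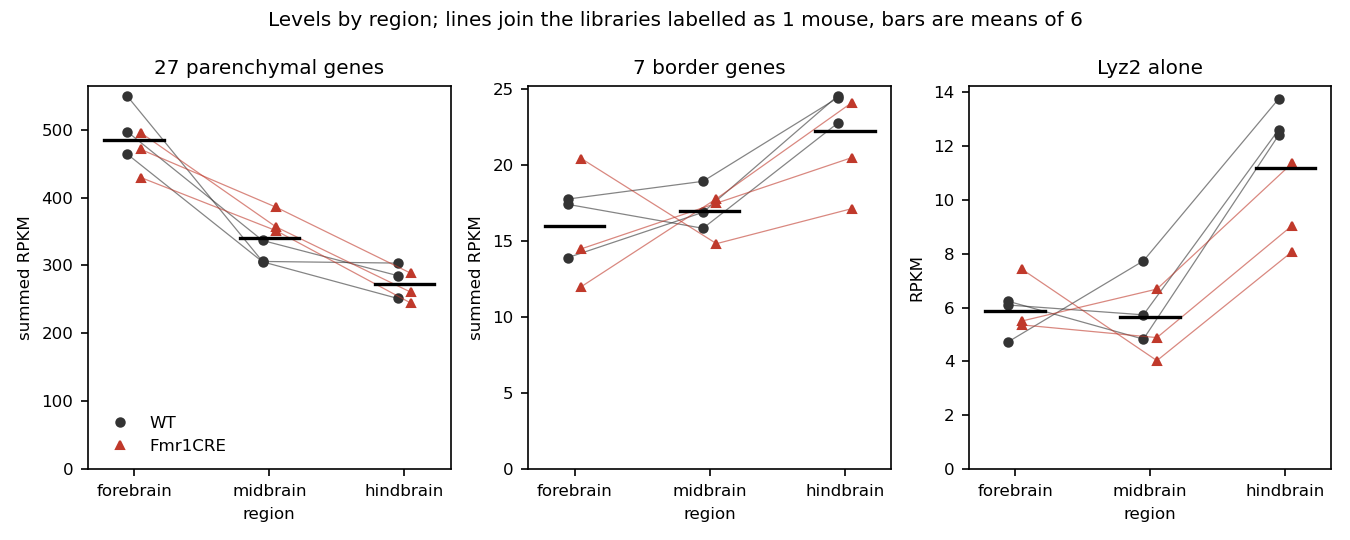
Summed RPKM of the 27 parenchymal genes (left) and the 7 border genes (middle), and RPKM of Lyz2 (right), against region. Each point is 1 library, lines join the libraries labelled as 1 mouse, and bars are means of 6; the parenchymal sum fell from forebrain to hindbrain in every mouse and Lyz2 was highest in hindbrain in every mouse.

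Of the 27 parenchymal genes, 26 were higher in forebrain than in hindbrain at an adjusted p under 0.05, and 0 were lower (edgeR), with a median log2 difference of 0.87. Over all 20363 genes tested 26.4% were higher in forebrain and the median was -0.01. Between forebrain and midbrain, 21 of 27 were higher in forebrain and 0 lower, against 9.38% and 9.95% of all genes, with a median of 0.53 beside 0.02 over all genes. Between midbrain and hindbrain, 14 of 27 were higher in midbrain and 1 lower, against 25.1% and 24% of all genes, with a median of 0.29 beside -0.03. Groups did not overlap, with forebrain above midbrain, for 15 of 27 genes (4.56% of all genes), with forebrain above hindbrain for 21 (14.8%) and with midbrain above hindbrain for 6 (16.8%). For 20 of 27 genes forebrain passed the test as higher than both other regions, and for 9 all 3 steps passed. The shares of all genes with these combined patterns were not counted. Within single mice as labelled, the median log2 ratio of forebrain to hindbrain over the 27 genes lay between 0.83 and 1.08. In each mouse 26 or 27 of 27 genes were higher in forebrain. The pairing of forebrain with the other regions is in doubt for replicate 3 and was not settled for replicate 2. Without both forebrain libraries of replicate 3, 25 genes were higher in forebrain than in hindbrain and 19 than in midbrain. The calls lost were those of Ptprc (0.35 ± 0.15, adjusted p = 0.0637) against hindbrain, and of Ly86 (0.34 ± 0.12, adjusted p = 0.0547) and Irf8 (0.44 ± 0.19, adjusted p = 0.116) against midbrain. Of the parenchymal genes, Laptm5 and Itgam moved by more than 0.2, to 0.04 and 0.22 for forebrain over midbrain and to 1.25 and 1.12 for forebrain over hindbrain, where both still passed.

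**Figure D2:**
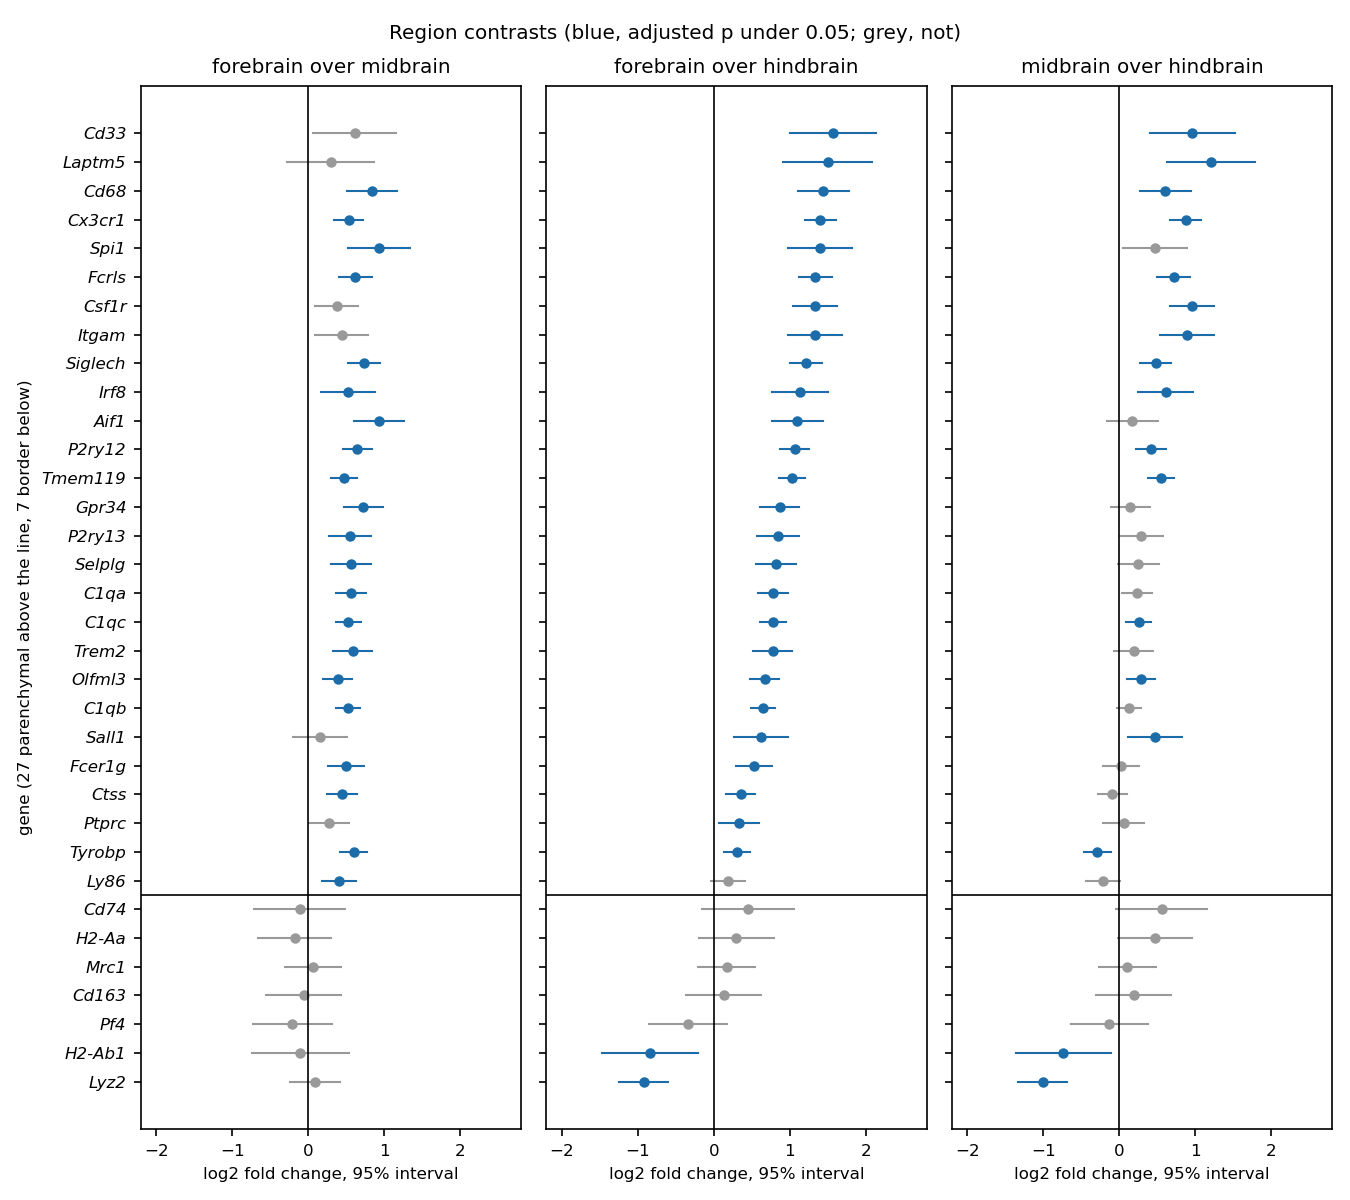
Log2 fold change with 95% interval for the 34 genes, in the 3 contrasts of regions, 6 libraries per region. Blue marks an adjusted p under 0.05; the parenchymal genes above the line lie right of 0 in forebrain over hindbrain, while Lyz2 and H2-Ab1 lie left of it.

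Among the receptors and surface proteins, Cx3cr1, which binds the neuronal chemokine Cx3cl1, was at 14.0 to 21.9 RPKM in forebrain (median 19.1), 10.9 to 14.2 in midbrain (median 13) and 6.09 to 8.22 in hindbrain (median 6.62). The hindbrain libraries lay below all others. Its log2 difference was 1.40 ± 0.09 (SE) between forebrain and hindbrain (adjusted p = 4.64e-09, edgeR), 0.53 ± 0.09 between forebrain and midbrain (adjusted p = 0.000884) and 0.87 ± 0.09 between midbrain and hindbrain (adjusted p = 1.82e-06). Csf1r, the receptor that microglia need to survive, was at 18.3 to 34 RPKM in forebrain (median 24.3), 14.7 to 21.6 in midbrain (median 20.7) and 7.84 to 12.4 in hindbrain (median 9.65). Midbrain lay close to forebrain and apart from hindbrain: the log2 difference was 0.37 ± 0.13 from forebrain to midbrain (adjusted p = 0.0636) and 0.96 ± 0.14 from midbrain to hindbrain (adjusted p = 2.87e-05). Transcripts of Hmgxb3 on the opposite strand cover 15.1% of the exon bases of Csf1r, and their reads may be divided between the genes.

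Cd33, a receptor of the Siglec family that binds sialic acid, had the largest log2 difference between forebrain and hindbrain among the 34 genes, 1.57 ± 0.27 (adjusted p = 0.000123). It was at 2.62 to 5.36 RPKM in forebrain (median 4.27), 1.51 to 3.98 in midbrain (median 2.76) and 0.785 to 2.35 in hindbrain (median 1.2). Siglech, another receptor of that family, was at 12.1 to 17.4 RPKM in forebrain (median 13.2), 6.83 to 11.7 in midbrain (median 8.37) and 5.33 to 6.53 in hindbrain (median 5.94). The 3 regions did not overlap in Siglech, and its differences were 0.73 ± 0.10 from forebrain to midbrain (adjusted p = 0.000102) and 1.21 ± 0.10 from forebrain to hindbrain (adjusted p = 4.5e-08). Itgam, the integrin chain CD11b, was at 3.38 to 7.03 RPKM in forebrain (median 4.97), 3.25 to 4.62 in midbrain (median 3.83) and 1.63 to 2.79 in hindbrain (median 1.95). Here too hindbrain lay apart, with a difference of 0.89 ± 0.17 from midbrain (adjusted p = 0.000389), while forebrain over midbrain was 0.44 ± 0.16 (adjusted p = 0.0722). The annotation places Gm49368 over 68.7% of the exon bases of Itgam on the same strand, so its level is uncertain.

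P2ry12, the ADP receptor that steers microglial processes to injury, was at 37.7 to 44.3 RPKM in forebrain (median 41.6), 22.5 to 31.2 in midbrain (median 27.9) and 17.5 to 24.6 in hindbrain (median 18.4). The forebrain libraries lay within a narrow band above all others, and the log2 difference to hindbrain was 1.06 ± 0.09 (adjusted p = 8.06e-08). P2ry13, its neighbour 5389 bases away on chromosome 3 and also a purine receptor, differed by 0.84 ± 0.13 (adjusted p = 5.89e-05). Both lie inside the span of Med12l. Tmem119, a membrane protein used to mark microglia, was at 8.52 to 11 RPKM in forebrain, 6.59 to 7.83 in midbrain and 4.16 to 5.67 in hindbrain, with no overlap of regions and a difference of 1.03 ± 0.08 to hindbrain (adjusted p = 3.14e-08). Sall1, a transcription factor of microglial identity, had the smallest step of the 27 genes from forebrain to midbrain, at 0.15 ± 0.17 (adjusted p = 0.563). Forebrain differed from hindbrain in Sall1 by 0.63 ± 0.17 (adjusted p = 0.00499). Without both forebrain libraries of replicate 3 its step to midbrain was 0.05, and that of Laptm5 was smaller, at 0.04.

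Of the lysosomal and phagocytic genes, Cd68, a membrane protein of lysosomes, was at 9.41 to 12.8 RPKM in forebrain (median 11.6), 4.19 to 7.90 in midbrain (median 6.64) and 2.95 to 5.30 in hindbrain (median 4.02). The forebrain libraries stood clear of the rest, with log2 differences of 0.84 ± 0.16 to midbrain (adjusted p = 0.0014) and 1.44 ± 0.16 to hindbrain (adjusted p = 1.35e-06). Laptm5, a lysosomal protein of blood-derived cells, spread most between replicates, at 17.0 to 43.3 RPKM in forebrain (median 29.8), 18.8 to 33.5 in midbrain (median 26.2) and 5.49 to 20.8 in hindbrain (median 9.19). Its forebrain and midbrain libraries overlapped, at 0.29 ± 0.27 (adjusted p = 0.489), and both differed from hindbrain, by 1.5 ± 0.28 (adjusted p = 0.000272) and 1.21 ± 0.27 (adjusted p = 0.00183). Ctss, the protease cathepsin S, had the highest level of the 27 genes in each region, at 52.3 to 67.0 RPKM in forebrain, 38.9 to 55.4 in midbrain and 36.6 to 51.3 in hindbrain. Midbrain and hindbrain overlapped in Ctss, with -0.09 ± 0.09 between them (adjusted p = 0.44).

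Aif1, the calcium-binding protein Iba1 used to stain microglia, and Spi1, the gene of PU.1, had the largest steps from forebrain to midbrain. Aif1 was at 13.1 to 17.3 RPKM in forebrain (median 15.8), 6.02 to 11.8 in midbrain (median 8.55) and 4.57 to 10.7 in hindbrain (median 7.71), and the difference was 0.93 ± 0.16 to midbrain (adjusted p = 0.00063). Spi1 was at 3.64 to 4.89 RPKM in forebrain (median 4.74), 1.59 to 3.73 in midbrain (median 2.35) and 1.23 to 2.44 in hindbrain (median 1.6), and the difference was 0.93 ± 0.19 to midbrain (adjusted p = 0.00333) and 1.40 ± 0.20 to hindbrain (adjusted p = 1.92e-05). Forebrain lay above both other regions in Aif1, while the highest midbrain library of Spi1 lay just above the lowest of forebrain. Midbrain and hindbrain overlapped in both genes: midbrain over hindbrain was 0.17 ± 0.16 for Aif1 (adjusted p = 0.395) and 0.47 ± 0.20 for Spi1 (adjusted p = 0.0577). Irf8, a factor that works with PU.1, differed at every step, by 0.53 ± 0.17 (adjusted p = 0.0389), 1.14 ± 0.17 (adjusted p = 3.94e-05) and 0.61 ± 0.17 (adjusted p = 0.00771) for forebrain over midbrain, forebrain over hindbrain and midbrain over hindbrain.

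C1qa, C1qb and C1qc, the chains of the complement protein C1q, lie side by side between positions 136880129 and 136898803 of chromosome 4 (GRCm38). In forebrain C1qa was at 29.7 to 38.2 RPKM, C1qb at 33.7 to 41.0 and C1qc at 22.6 to 28.3. Per unit length the ratio of C1qb to C1qa was between 1.01 and 1.40 in the 18 libraries (median 1.13) and that of C1qc to C1qb between 0.623 and 0.785 (median 0.689), so the order of C1qb and C1qc was kept in every library. Forebrain exceeded hindbrain by 0.79 ± 0.09, 0.65 ± 0.07 and 0.78 ± 0.08 on the log2 scale for C1qa, C1qb and C1qc (adjusted p = 3.14e-06, 2.35e-06 and 4.73e-07). Most of that step lay between forebrain and midbrain, at 0.56 ± 0.09, 0.52 ± 0.07 and 0.52 ± 0.08, while midbrain over hindbrain passed the test for C1qc alone (0.26 ± 0.08, adjusted p = 0.0125).

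Tyrobp, the adaptor that signals for Trem2, went the other way between midbrain and hindbrain. It was at 28.7 to 33.0 RPKM in forebrain (median 30.9), 16.4 to 25.4 in midbrain (median 20.2) and 23.7 to 26.2 in hindbrain (median 24.7). Midbrain was the lowest region, with -0.29 ± 0.08 against hindbrain (adjusted p = 0.00914), and the call was lost without a filter on low counts (-0.25, adjusted p = 0.0976) and with Fmr1CRE libraries only (-0.11, adjusted p = 0.578). Ly86, a partner of a Toll-like receptor, had the same order of medians, 12.3 RPKM in forebrain, 10.9 in hindbrain and 9.70 in midbrain, and only forebrain over midbrain passed the test (0.40 ± 0.10, adjusted p = 0.0134). Trem2, the lipid receptor that Tyrobp serves, differed by 0.77 ± 0.12 between forebrain and hindbrain (adjusted p = 4.84e-05) and by 0.19 ± 0.12 between midbrain and hindbrain (adjusted p = 0.197).

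The remaining parenchymal genes were all higher in forebrain than in hindbrain. Fcrls, an Fc receptor-like protein of microglia, differed by 1.34 ± 0.10 (adjusted p = 1.89e-08). Gpr34, a lipid receptor whose gene lies inside the span of Cask, differed by 0.87 ± 0.12, Selplg, a ligand of selectins, by 0.82 ± 0.13, and Olfml3, a secreted protein, by 0.67 ± 0.09. Fcer1g, a signalling chain of Fc receptors, differed by 0.53 ± 0.11. Ptprc, the phosphatase CD45 of all white blood cells, stayed between 0.691 and 1.24 RPKM in all libraries and differed by 0.33 ± 0.13 (adjusted p = 0.0364).

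**Figure D3:**
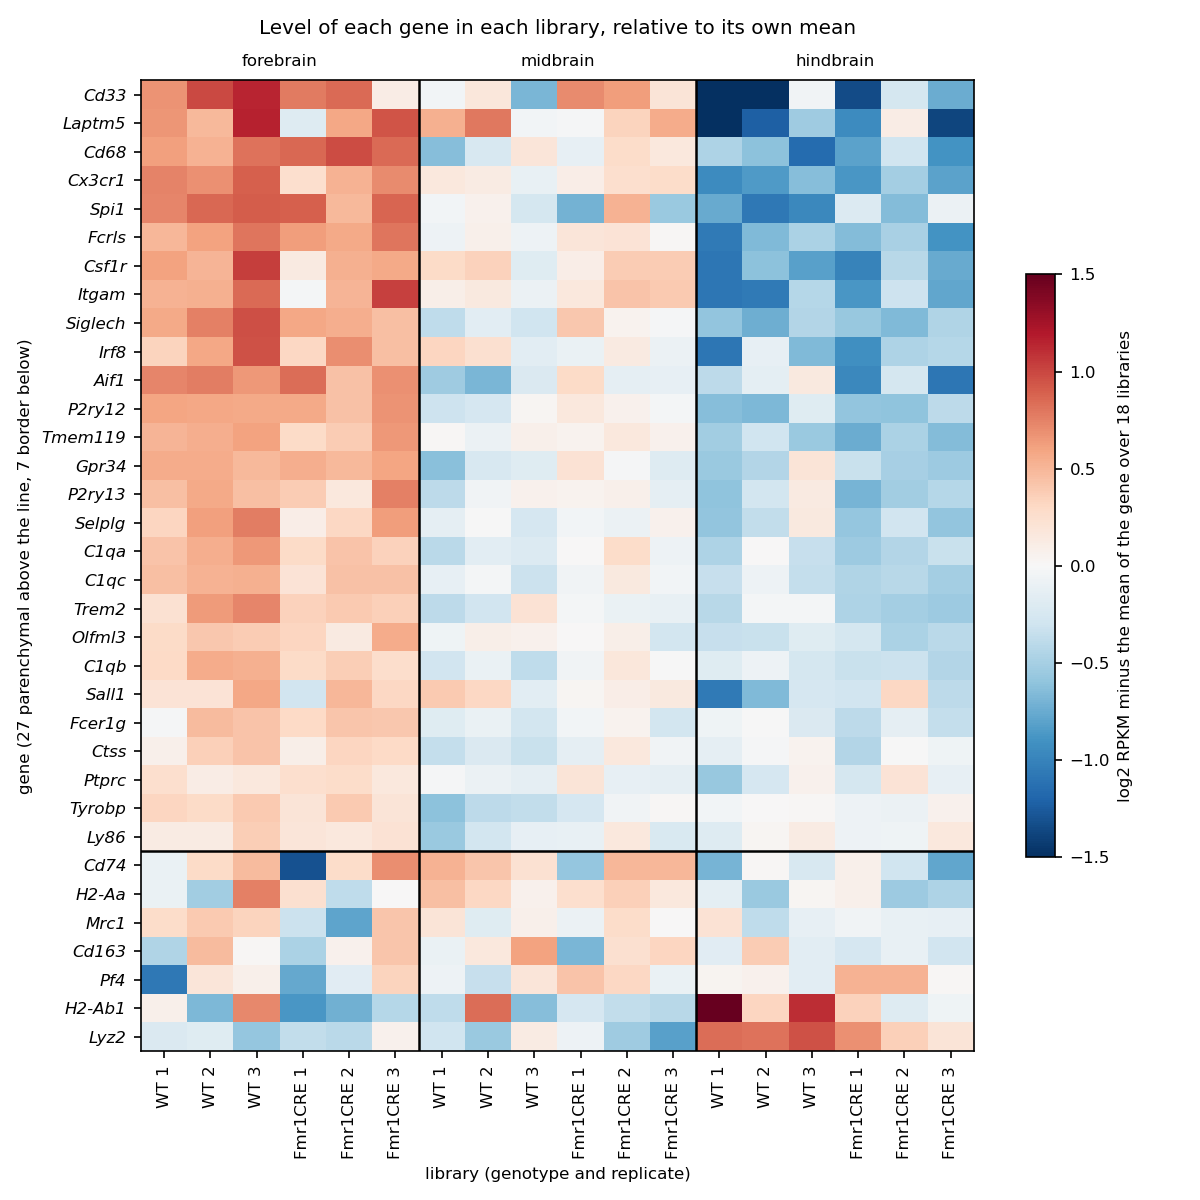
Level of each of the 34 genes in each of the 18 libraries as log2 RPKM minus the gene's own mean, on a colour scale that stops at 1.5 in both directions. Rows are ordered by forebrain over hindbrain within each list; of the 162 parenchymal values per region, 158 lie above the gene mean (red) in forebrain and 16 in hindbrain, while Lyz2 is red in all 6 hindbrain libraries and H2-Ab1 in 4 of 6.

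The border genes did not share that order. Summed over the 7 genes the level lay between 12 and 20.4 RPKM in forebrain, 14.8 and 18.9 in midbrain and 17.1 and 24.6 in hindbrain, and the regions overlapped. Of the 7, 0 were higher and 2 lower in forebrain than in hindbrain, against 26.4% and 25.3% of all genes, so the share called lower is near that over all genes. Between forebrain and midbrain 0 of 7 passed the test, where 19.3% of all genes did, so with 7 genes this count says little. In no contrast did 5 of 7 pass, and the share of all genes with that pattern was not counted. The median log2 difference of forebrain over hindbrain was 0.13, against 0.87 for the parenchymal genes.

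Lyz2, lysozyme of macrophages, monocytes and neutrophils, was at 4.73 to 7.43 RPKM in forebrain (median 5.80), 4.03 to 7.73 in midbrain (median 5.31) and 8.07 to 13.7 in hindbrain (median 11.9). Every hindbrain library lay above every other library. The log2 difference was -0.92 ± 0.15 for forebrain over hindbrain (adjusted p = 0.000102) and -1.01 ± 0.15 for midbrain over hindbrain (adjusted p = 5.84e-05), and forebrain over midbrain was 0.09 ± 0.15 (adjusted p = 0.749). Of the stretches of 31 bases in Lyz2 transcripts, 32.8% also occur in the neighbouring gene Lyz1, so reads may be divided between them. Some markers of blood cells were also higher in hindbrain than in forebrain. Of 8 monocyte and neutrophil genes 6 were tested, and 3 were lower in forebrain than in hindbrain, where 25.3% of all genes were. The 3 were the neutrophil genes S100a8 (-2.13 ± 0.46, adjusted p = 0.00103), S100a9 (-1.82 ± 0.43, adjusted p = 0.00212) and Ngp (-2.10 ± 0.48, adjusted p = 0.00164). The summed level of the 8 genes was between 5.58 and 15.2 RPKM in forebrain, 5.04 and 10.2 in midbrain and 12.6 and 30.0 in hindbrain. All 5 red blood cell genes were lower in forebrain than in hindbrain, by 0.90 to 0.99 on the log2 scale, beside the same 25.3% of all genes. Between genotypes in hindbrain the monocyte and neutrophil sum did not go with Lyz2. That sum was 16.3 ± 3.21 RPKM (SD) in wild type and 22.4 ± 6.70 in Fmr1CRE, where Lyz2 was lower. The choroid plexus sum, given below, was also highest in hindbrain. The part of any of these cells in the level of Lyz2 was not tested.

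H2-Ab1, the beta chain of the MHC class II molecule I-A, was at 0.601 to 1.81 RPKM in forebrain (median 0.754), 0.708 to 1.98 in midbrain (median 0.848) and 0.968 to 3.36 in hindbrain (median 1.39). The regions overlapped. The log2 difference of forebrain over hindbrain was -0.84 ± 0.30 (adjusted p = 0.026), and that of midbrain over hindbrain was -0.73 ± 0.29 (adjusted p = 0.0489) and -0.70 with the mouse as a block (adjusted p = 0.0928). The first of these missed the test when any 1 of 6 libraries was left out, and the second when any 1 of 14 was left out. H2-Aa, the alpha chain of the same molecule, 13324 bases from H2-Ab1 on chromosome 17, was at 0.704 to 1.71 RPKM in forebrain, 1.05 to 1.37 in midbrain and 0.688 to 1.07 in hindbrain. It did not follow its partner: forebrain over hindbrain was 0.30 ± 0.23 (adjusted p = 0.302). Cd74, the invariant chain that guides MHC class II proteins, was at 0.818 to 3.29 RPKM in forebrain, 1.36 to 2.91 in midbrain and 1.19 to 2.14 in hindbrain, at 0.45 ± 0.29 for forebrain over hindbrain (adjusted p = 0.204). The low value in forebrain was that of Fmr1CRE replicate 1, and without that library the difference was 0.65 (adjusted p = 0.0254).

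Mrc1, the mannose receptor of border macrophages, was at 0.604 to 1.39 RPKM in forebrain, 0.922 to 1.26 in midbrain and 0.802 to 1.21 in hindbrain, with 0.17 ± 0.18 between forebrain and hindbrain (adjusted p = 0.443). Cd163, their haemoglobin scavenger receptor, stayed between 0.250 and 0.608 RPKM in all libraries, with 0.13 ± 0.23 (adjusted p = 0.665). Pf4, a chemokine of platelets and border macrophages, was counted 8 to 30 times per library and gave -0.34 ± 0.24 (adjusted p = 0.259). The regions overlapped in all 3 genes. Without both forebrain libraries of replicate 3, forebrain over hindbrain was 0.17 for Cd74, 0.07 for H2-Aa, -0.56 for Pf4, -1.11 for H2-Ab1 and -0.03 for Mrc1, and forebrain over midbrain was -0.39, -0.42, -0.43, -0.38 and -0.14 in the same order. No call changed in these 5 genes. With all libraries, the 95% intervals of the differences between forebrain and hindbrain ran from -0.20 to 0.54 for Mrc1, from -0.36 to 0.62 for Cd163 and from -0.85 to 0.17 for Pf4.

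Further lists were read beside the members, chosen with earlier results of these data known. Of 20 further microglial genes 14 were higher and 2 lower in forebrain than in hindbrain (median 0.72), against 26.4% and 25.3% of all genes, among them Inpp5d, a lipid phosphatase (2.01 ± 0.26), and Mertk, a receptor for dying cells (1.73 ± 0.13). The 2 lower ones were Runx1, a blood cell factor (-1.13 ± 0.34), and Lgmn, a lysosomal protease (-0.50 ± 0.09). Of 11 further border genes 10 were tested, with 1 higher and 3 lower, a share of lower genes near that of all genes: Stab1, a scavenger receptor (0.93 ± 0.27), against Folr2, a folate receptor (-0.96 ± 0.26), F13a1, a clotting factor chain (-0.50 ± 0.15), and Tgfbi, a matrix protein (-0.42 ± 0.13). Of 7 further MHC class II genes 6 were tested and 1, the peptide loader H2-DMa, was higher in forebrain (1.37 ± 0.14).

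Of the ligands of the microglial receptors, Cx3cl1 and Il34 were higher in forebrain than in hindbrain. Cx3cl1, which neurons make, was at 124 to 211 RPKM in forebrain, 101 to 175 in midbrain and 20.4 to 48.4 in hindbrain, a difference of 2.57 ± 0.19 between forebrain and hindbrain (adjusted p = 1.57e-08). Il34, a neuronal ligand of Csf1r, was at 26.7 to 39.3 RPKM in forebrain, 22.2 to 29.2 in midbrain and 6.19 to 11 in hindbrain, a difference of 2.07 ± 0.16 (adjusted p = 2.19e-08). For Csf1, the other ligand of Csf1r, forebrain over hindbrain was -0.31 ± 0.17 (adjusted p = 0.144). Of the 13 genes of ligands and partners 8 were higher in forebrain than in hindbrain and 1 lower, Itgb8 (-0.42 ± 0.14), against 26.4% and 25.3% of all genes.

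Complement genes outside C1q and genes of activated microglia were called in both directions. Of 11 complement genes 5 were lower in forebrain than in hindbrain and 1 higher, against 25.3% and 26.4% of all genes, and the lower ones included C3, the protein cleaved after C1q acts (-3.40 ± 0.42), and the membrane inhibitor Cd59a (-1.96 ± 0.12). Of 16 genes of activated microglia 12 were tested, with 5 lower and 2 higher in forebrain, against the same shares of all genes. Spp1, osteopontin, was at 4.47 to 8.64 RPKM in forebrain, 24.3 to 45.0 in midbrain and 90.1 to 152 in hindbrain (-4.04 ± 0.17, adjusted p = 3.21e-11), and Lpl, lipoprotein lipase, was higher in forebrain (1.73 ± 0.10). Both lists hold genes that cells other than microglia also express.

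Marker genes of other cell types also differed between the regions. Over all genes 26.4% were higher and 25.3% lower in forebrain than in hindbrain, and the counts below stand beside these shares. All 8 oligodendrocyte genes were lower in forebrain than in hindbrain, and 5 of 9 meningeal fibroblast genes and 5 of 8 choroid plexus genes were lower with 0 higher. The choroid plexus sum was between 368 and 884 RPKM in forebrain, 167 and 483 in midbrain and 927 and 3260.0 in hindbrain, and the fibroblast sum between 39.2 and 72.7, 86.0 and 119, and 80.0 and 122. Of 7 endothelial genes 1 was higher and 2 lower and of 6 astrocyte genes 1 and 2, with shares of lower genes near that over all genes. Of 6 neuronal genes 3 were higher and 3 lower. Of 8 lymphocyte genes 5 were tested, with Trbc2 higher in forebrain (4.76 ± 0.19) and Ms4a1 lower (-1.36 ± 0.45), and the T cell genes Cd3d, Cd3e and Cd3g were too low to be tested. The part of tissue make-up in the levels of the 34 genes was not tested.

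Inside groups of the same region and genotype, the parenchymal genes did not vary as one. Correlations of their deviations from the group means over the 18 libraries are given as a description, since the libraries share depth, pools and base composition. The 351 pairs of parenchymal genes ran from r = -0.56 to 0.94, with a median of 0.25. With Laptm5, Cx3cr1 had r = 0.93, Sall1 0.93, Itgam 0.88 and Selplg 0.84, so 4 of 26 reached 0.8, which 2.01% of 18871 genes did. With P2ry12, P2ry13 had 0.82 and Gpr34 0.78, and Laptm5 had -0.01. Base composition differed in part between these genes. Of the bases in its transcripts 39.4% are G or C in P2ry12 and 54.2% in Csf1r, and the correlation with the tilt of each library towards GC-rich genes was -0.82 for P2ry12 and 0.74 for Csf1r. For the genes that followed Laptm5 it was 0.47 for Cx3cr1, 0.51 for Sall1, 0.24 for Itgam and 0.13 for Selplg, and for those that followed P2ry12 it was -0.49 for P2ry13 and -0.59 for Gpr34. Csf1r also followed Cx3cl1, the ligand of Cx3cr1 (r = 0.90). With Cx3cl1, 2 of 27 parenchymal genes reached 0.8, which 2.61% of all genes did. Cx3cl1 itself had a correlation of 0.76 with the tilt of each library. The part of base composition in these correlations was not tested, and the pairs were chosen after their values were seen.

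**Figure D4:**
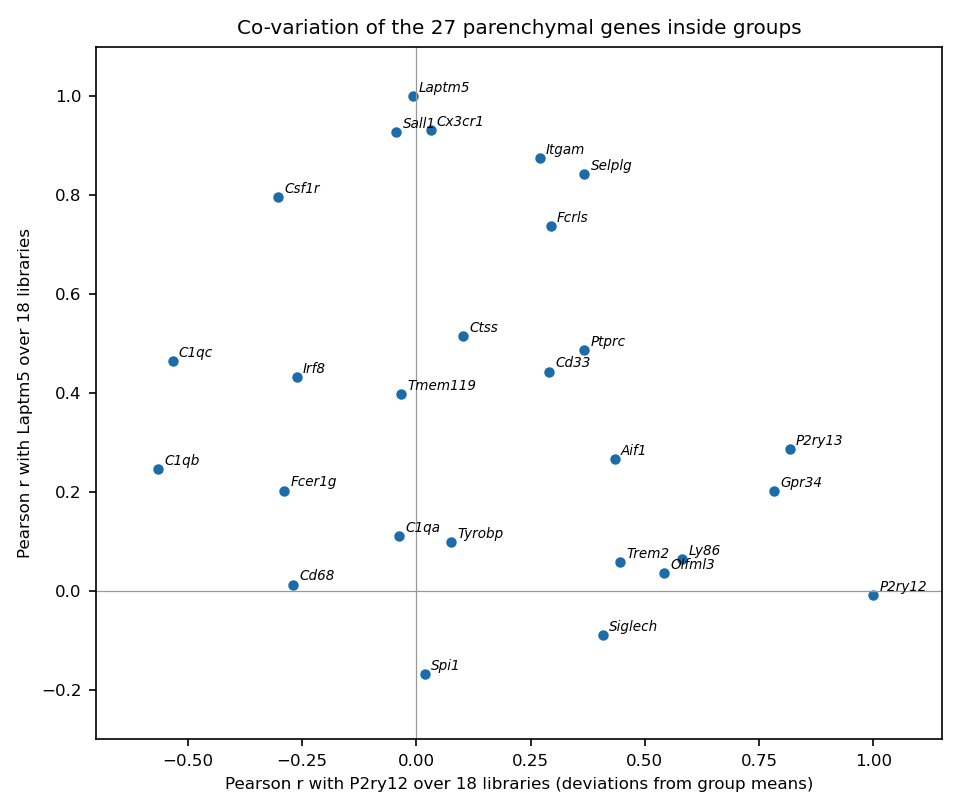
Pearson r of each of the 27 parenchymal genes with P2ry12 (horizontal) and with Laptm5 (vertical), on deviations from group means over the 18 libraries. Each point is 1 gene; Cx3cr1 and Sall1 lie at 0.93 with Laptm5 and near 0 with P2ry12, and P2ry13 at 0.82 with P2ry12.

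The comparison of Fmr1CRE with wild type asks whether the change in the regulatory element altered these genes at P25. No member passed an adjusted p of 0.05 by edgeR, whether the regions were tested singly or their counts were added up for each mouse. Of all genes, 0% were called in forebrain and in hindbrain, 0.00543% in midbrain and 0.00451% in the sums. At an unadjusted p under 0.05 forebrain had 0 of 34 members, midbrain 6, hindbrain 2 and the sums 2, where 5.44%, 6.16%, 5.09% and 3.65% of all genes passed. By DESeq2 0 members passed adjustment either. The forebrain fit and the sums hold the forebrain libraries labelled replicate 3, which may have changed places between the genotypes. Only the forebrain fit was repeated without both of them. The check cannot tell this from an exchange of the midbrain and hindbrain libraries of that number, and it did not settle replicate 2. The members' intervals were wide, as the plot of genotype differences shows, so these counts do not show that the genotypes were alike.

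In midbrain the parenchymal genes leaned upwards in Fmr1CRE. The 27 genes were read from the same 3 libraries per genotype and are not independent, so counts of signs are a description only. The summed level was 316 ± 18.0 RPKM (SD, n = 3) in wild type and 365 ± 18.6 in Fmr1CRE, 22 of 27 genes had a positive log2 difference, and the median was 0.16, where 9016 of all 18400 genes were positive and their median was -0.0046. In forebrain the sums were 503 ± 43.0 and 465 ± 33.3, with 7 of 27 positive and a median of -0.06, and in hindbrain 280.0 ± 26.4 and 264 ± 22.3, with 10 of 27 positive and a median of -0.06. Summed over regions, 13 of 27 were positive and the median was -0.0032. Without both forebrain libraries of replicate 3, 10 of 27 were positive in forebrain, with a median of -0.04.

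Ctss and Siglech had the smallest unadjusted p in midbrain. Ctss was at 38.9, 42.6 and 39.4 RPKM in wild type and at 45.3, 55.4 and 47.9 in Fmr1CRE. The genotypes did not overlap, and the log2 difference was 0.30 ± 0.11 (adjusted p = 0.799). Siglech was at 6.83, 7.97 and 7.18 RPKM in wild type and at 11.7, 9.17 and 8.77 in Fmr1CRE, a difference of 0.43 ± 0.15 (adjusted p = 0.806). The other 4 were C1qa, C1qb, Tyrobp and Cd33, with differences of 0.32, 0.29, 0.36 and 0.67. Groups did not overlap for 8 of 34 members in midbrain, all higher in Fmr1CRE, where 11.3% of all genes did not overlap.

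In forebrain the smallest unadjusted p values were those of Cx3cr1 and H2-Ab1. Cx3cr1 was at 19.7, 18.9 and 21.9 RPKM in wild type and at 14.0, 16.9 and 19.2 in Fmr1CRE. These values overlapped, with a log2 difference of -0.25 ± 0.13 (adjusted p = 0.807) and -0.28 ± 0.14 without the libraries of replicate 3 (adjusted p = 0.429). H2-Ab1 differed by -0.79 ± 0.41 (adjusted p = 0.807) and by -0.49 ± 0.45 without them (adjusted p = 0.65). Without these libraries the smallest unadjusted p among the members was that of Mrc1, at -0.83 ± 0.29 (adjusted p = 0.332).

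H2-Ab1 was below wild type in Fmr1CRE in all 3 regions. In hindbrain it was at 3.36, 1.37 and 2.38 RPKM in wild type and at 1.40, 0.968 and 1.06 in Fmr1CRE, which overlapped, with a log2 difference of -1.08 ± 0.38 (adjusted p = 0.879). In midbrain the difference was -0.43 ± 0.41, where wild-type replicate 2 was at 1.98 and the other 5 libraries between 0.708 and 0.928. In the sums per mouse it was at 1.89, 1.34 and 1.6 RPKM in wild type and at 0.994, 0.836 and 0.900 in Fmr1CRE. The mice of the genotypes did not overlap, with a log2 difference of -0.82 ± 0.19, an unadjusted p of 0.00272 and an adjusted p of 0.999 in edgeR. These sums follow the labels, and the forebrain libraries labelled replicate 3 may belong to the other genotype. Groups did not overlap for 4 of 34 members in the sums, where 8.17% of all genes did not overlap. H2-Aa, its partner chain, differed by -0.10 in hindbrain, -0.02 in midbrain and -0.14 in forebrain.

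Lyz2 was at 12.6, 12.4 and 13.7 RPKM in hindbrain of wild type and at 11.4, 9.04 and 8.07 in Fmr1CRE. The Fmr1CRE libraries were all lower, with a log2 difference of -0.48 ± 0.17 (adjusted p = 0.879). In forebrain the difference was 0.13 ± 0.21 and in midbrain -0.24 ± 0.26, and in the sums -0.27 ± 0.12 (adjusted p = 0.999). Of 6 monocyte and neutrophil genes tested in hindbrain 0 passed adjustment, and 4 were positive.

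**Figure D5:**
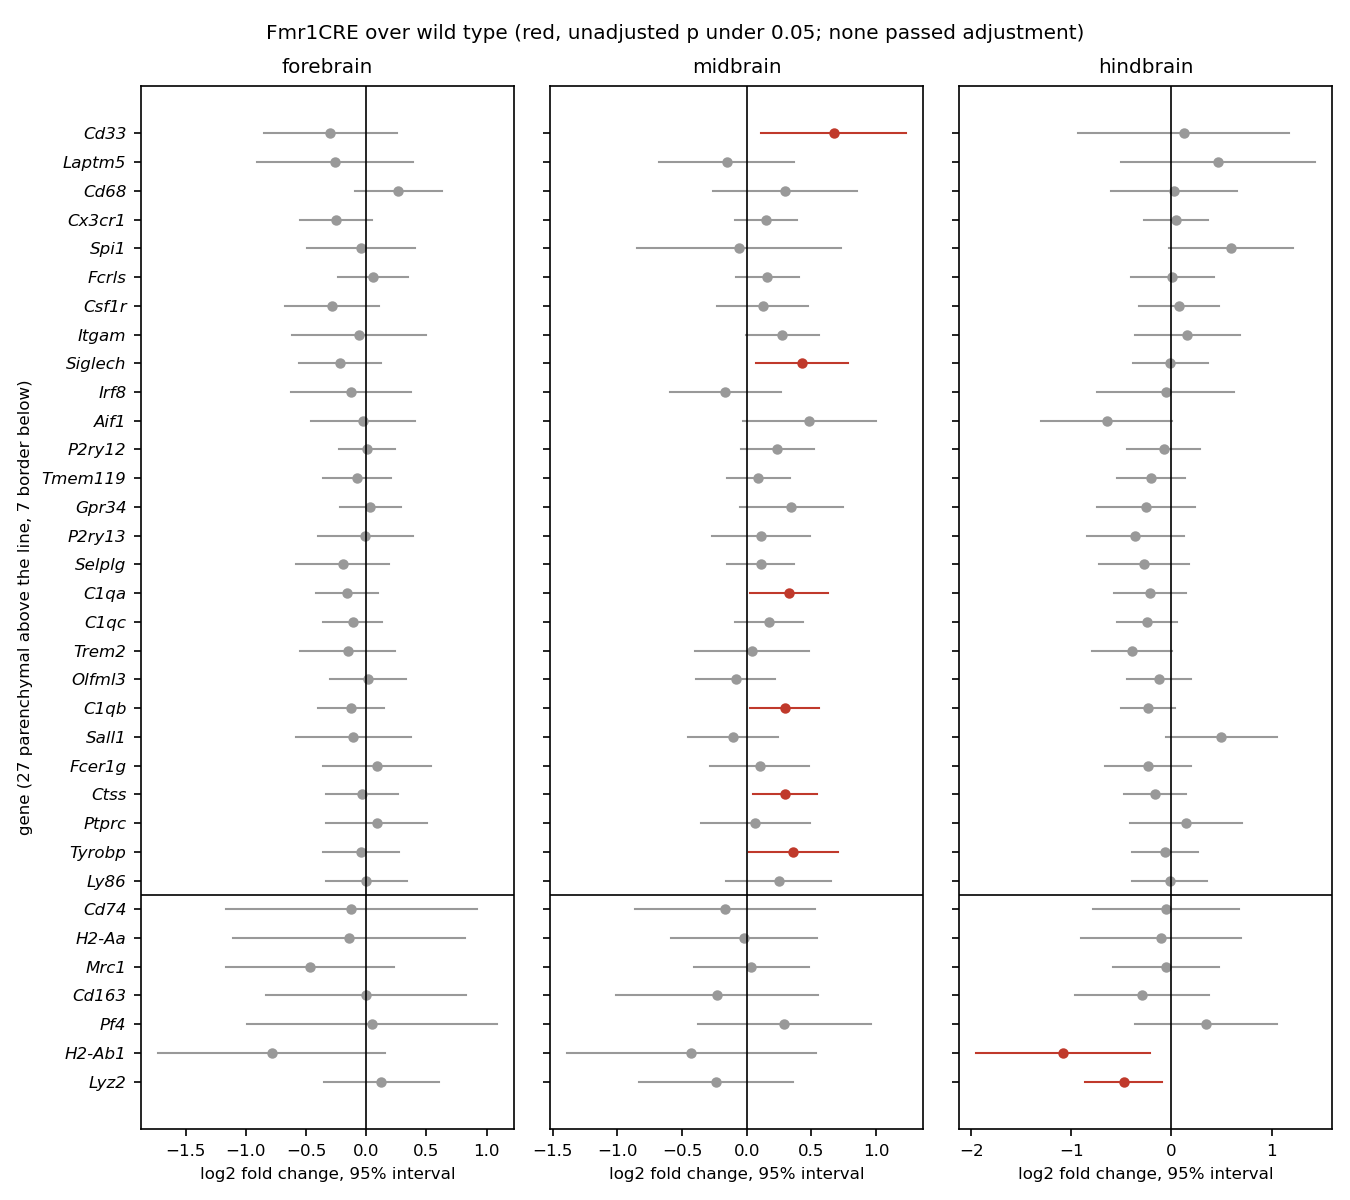
Log2 fold change of Fmr1CRE over wild type with 95% interval for the 34 genes in forebrain, midbrain and hindbrain, 3 libraries per group. Red marks an unadjusted p under 0.05, in 0, 6 and 2 genes; H2-Ab1 lies left of 0 in all 3 panels and most parenchymal genes lie right of 0 in midbrain.

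Whether the genotype difference depended on the region was tested as an interaction over all 18 libraries. No member passed adjustment, and the smallest adjusted p was 0.662. At an unadjusted p under 0.05 there were 6 of 34 members, C1qa, C1qb, C1qc, Aif1, Tyrobp and Siglech, where 7.49% of all genes were. C1qb had the smallest, 0.0063 before adjustment in edgeR, and was at 34.3, 41.0 and 40.5 RPKM in wild-type and 34.2, 36.3 and 33.7 in Fmr1CRE forebrain, at 22.9, 26.1 and 21.4 and at 26.9, 31.6 and 27.8 in midbrain, and at 24.7, 26.6 and 23.2 and at 22.1, 22.3 and 20.6 in hindbrain. Fmr1CRE was the higher genotype in midbrain alone. Aif1, the next, differed by 0.48 in midbrain, by -0.65 in hindbrain and by -0.02 in forebrain. Read within genotypes, 14 of 27 parenchymal genes were higher in forebrain than in midbrain in wild type (median 0.69), where 4.33% of all genes were, and 2 of 27 in Fmr1CRE (median 0.38), where 1.12% were. Fewer of all genes passed in the Fmr1CRE fit, so these counts are no measure of a difference between the genotypes. Higher in forebrain than in hindbrain were 22 of 27 in each genotype, with 22.4% of all genes in wild type and 16% in Fmr1CRE. Both fits and the interaction hold the forebrain libraries labelled replicate 3, which may have changed places between the genotypes.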

How the data were processed

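Poly(A) RNA of 3 regions from 6 mice was sequenced as single reads of 50 bases on 18 libraries. Per the submitters' processing notes the tools were Salmon 0.14.0 and DESeq2 1.30.1, on build mm10. The authors deposited expected counts per gene, rounded to whole numbers. They follow from length-scaled TPM values, which the authors deposited per transcript from Salmon, since 99.6% of gene values over 50 counts lay within 1% of that, and 18.9% within 1% of summed reads. Transcript tables gave the mean effective length per gene only, because their names and sample records disagreed. The 105 identifiers without a symbol held 0.0438% of the counts. Totals were 22455512 to 28061185 counts per library, and how much of the error is counting error was not separated from the spread between mice.

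Counts were tested in edgeR 4.0.16 (R 4.3.3) with TMM normalization, the default filter and quasi-likelihood tests, adjusted by the Benjamini-Hochberg method. Regions and the interaction used 1 fit of 18 libraries, genotypes a fit per region and one of counts summed per mouse. The fit of 18 libraries has no term for the mouse. Regions from 1 mouse share an animal, and their deviations correlated between -0.16 and 0.18, while same-numbered mice of the genotypes share only a number. RPKM used TMM-scaled totals. Correlations used genes with a mean of 10 counts or more and a pseudocount of 0.5 CPM. The scripts were tested on simulated data.

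Members and lists were chosen with earlier results of these data known. Text names all 34 members, with full values for the 4 parenchymal genes with the largest change each way per region contrast, every border gene, those against their list's direction, and per genotype contrast the 2 smallest p where none passed. Other genes described were chosen after their values were seen. Alternatives were DESeq2 1.42.0, its size factors, total counts, other filters, blocks, each genotype alone, and each library left out. Of the measured columns 0 stayed unused. Which library was in which sequencing pool is not given in the sources used here.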

Additional observations from a re-analysis of the deposited data

How the results depend on the processing

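Of 567 counts, medians and ratios recomputed under the alternatives 526 were unchanged, which means within 1.5 times for a count and within the spread between mice (1 SD) for a median or ratio. In the genotype and interaction tests 0 members passed in the 77 counts under alternatives. Single genes were followed through the alternatives only where the rule for full values picked them. Among the genotype differences so followed, the lowest adjusted p under any alternative was 0.259, for Cx3cr1 in forebrain. That rule also picked 17 called differences between regions, which kept their sign in all 459 fits and lost the call in 36. The other called differences described for single genes are not in this count.

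With Fmr1CRE libraries only, 2 parenchymal genes were higher in forebrain than in midbrain, 0 border genes were lower in forebrain than in hindbrain, 0 parenchymal and 1 border gene were lower in midbrain than in hindbrain, and the parenchymal medians were 0.97 for forebrain over hindbrain and 0.46 for midbrain over hindbrain. With wild-type libraries only, 8 parenchymal genes were higher and 2 lower in midbrain than in hindbrain, 1 border gene was lower in forebrain and 1 in midbrain than in hindbrain. These fits hold fewer samples. With total counts alone the parenchymal median of forebrain over hindbrain was 0.74 and the ratio of the summed levels 1.61, and 2 parenchymal genes were lower in midbrain than in hindbrain, as with at least 10 counts in every library (2). Without a filter 0 parenchymal and 1 border gene were lower there. With the mouse as a replicate block, the pairing within mice as labelled, 1 border gene was lower there, since H2-Ab1 was lost. The block changed no other call: 21 of 21, 28 of 28 and 16 of 17 members called in the 3 contrasts were called in both fits. For replicate 3 the pairing of the forebrain libraries with the other regions is in doubt. The replicate number as a block left 0 members called in each genotype comparison.

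With each library left out in turn, the parenchymal median of forebrain over hindbrain ran from 0.80 to 1.001, the border genes higher there from 0 to 1 and lower from 1 to 2, and those higher in midbrain over hindbrain from 0 to 1 and lower from 1 to 2. The gene lost was H2-Ab1 and the gene gained Cd74, the latter without Fmr1CRE forebrain replicate 1 (0.65 and 0.56) or Fmr1CRE midbrain replicate 1 (0.70).

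Among the differences followed in this way, signs reversed only where the test had not been passed with all libraries. For forebrain over midbrain, leaving out libraries gave -0.0019 to 0.198 for Lyz2, -0.141 to 0.177 for Mrc1, -0.193 to 0.053 for Cd163, -0.391 to 0.086 for Cd74 and -0.379 to 0.195 for H2-Ab1, where the values below 0 for Lyz2 and Mrc1 came without Fmr1CRE forebrain replicate 3 (for Mrc1 -0.140, and -0.141 without both libraries of that number). Wild-type libraries only gave -0.077 for Lyz2 and 0.091 for H2-Ab1, and Fmr1CRE libraries only gave -0.199 for Mrc1 and 0.040 for Cd163. For forebrain over hindbrain, Mrc1 ran from -0.027 to 0.292 with libraries left out and was at -0.087 with Fmr1CRE libraries only, and Cd163 was at -0.013 with total counts alone and -0.0064 with wild-type libraries only. For midbrain over hindbrain Ctss was at 0.10 with Fmr1CRE libraries only and at -0.33 with wild-type libraries only, which passed (adjusted p = 0.0461). The cause was not tested.

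Summed levels depend on the length used: with the merged exon length the parenchymal sums were 308, 218 and 176 RPKM and the border sums 8.27, 8.47 and 12.2 in forebrain, midbrain and hindbrain. Counts of 8 to 30 for Pf4 and 14 to 35 for H2-Aa limit what could be seen in the border genes.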
